A study of Drosophila melanogaster with 16 samples.

Results

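The genes described here are 10 genes of haem synthesis, haem breakdown and iron handling in adult *Drosophila melanogaster*, chosen by their FlyBase symbols from the 17490 genes of the count table. They are *Alas*, *Pbgs*, *Coprox*, *Ppox* and *FeCH*, which encode enzymes of haem synthesis, *Ho*, which encodes haem oxygenase, *Fer1HCH* and *Fer2LCH*, which encode the ferritin chains, *Tsf1*, which encodes a transferrin, and *Mvl*, which encodes a metal transporter. All 10 were found, and all 10 passed the filter on low counts, with at least 216 reads in every library. RNA came from pools of 30 whole adults, aged 3 to 5 days, and each sex of 4 lines gave 2 libraries. DGRP_208 is an inbred wild-type line that is free of *Wolbachia*, and *208-ΔA*, *208-ΔF* and *208-ΔG* carry independent deletions in that line, made by genome editing, that remove the start of the long noncoding RNA gene *Uhg4* (promoter and first exon). Each deletion line therefore stands for 1 allele, backcrossed to DGRP_208 and kept over the *CyO* balancer, and the flies sequenced were homozygous. The study treats the 2 libraries of a group as biological replicates, and the p-values measure the spread between them.

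Haem is made in a chain of enzyme steps that begins in the mitochondrion with the joining of glycine and succinyl-CoA by *Alas* (5-aminolevulinate synthase), passes through the cytosol and returns to the mitochondrion, where ferrochelatase inserts iron into protoporphyrin. It is the prosthetic group of the respiratory cytochromes, of catalase and of cytochrome P450 enzymes. Insect ferritin is a secreted shell built of heavy chains, which oxidise iron, and light chains, and much of the iron taken up in the midgut of the fly is stored in it. In bulk RNA of whole flies, fewer cells of a type and less RNA per cell cannot be told apart.

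The counts of a library summed to 13902521 to 51954693 reads. *Uhg4* stood at 6.66 and 6.67 CPM (counts scaled to library size with TMM factors) in the DGRP_208 females and at 0.195 to 0.671 CPM in the 6 deletion females, whereas the DGRP_208 males, at 1.89 and 0.974 CPM, overlapped the 6 deletion males at 0.213 to 1.02 CPM. Whole flies hold every tissue of their sex. The marker lists of testis (5 genes), midgut (5) and fat body (5) had reads in every library for each of their genes, as did the 4 ovary markers found. Of the 5 accessory gland markers, *Acp95EF* was at 0 in every library. Reads of testis markers in females and of ovary markers in males do not show that the tissue was there. A pair of libraries held more transcripts of the other sex than the rest. Ovary markers summed to 262 CPM in *208-ΔA* male replicate 2 and to between 5.90 and 57.4 CPM in the remaining males. Accessory gland markers summed to 69.6 CPM in *208-ΔF* female replicate 2 and to between 6.73 and 9.06 CPM in the remaining females. The libraries also differed in the median level of 185 chemoreceptor genes, which few cells of a fly express. This level ran from 0.350 to 0.931 RPKM (reads scaled to gene length and library size) in *208-ΔA* and from 2.87 to 5.92 RPKM in *208-ΔG*, and it differed between replicates of DGRP_208 males (0.596 and 3.45 RPKM). Levels below are CPM on the TMM scale unless RPKM is named, a fold change is on the log2 scale with its standard error (SE) from edgeR's quasi-likelihood test, and a gene was called at a Benjamini-Hochberg adjusted p under 0.05 over 16212 genes.

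Per kilobase, the ferritin chains were by far the most abundant of the 10. *Fer2LCH* averaged 538 ± 196 RPKM and *Fer1HCH* 269.9 ± 88.9 RPKM (SD, n = 16), followed by *Tsf1* at 107 ± 38.9 RPKM and *Alas* at 95.5 ± 31.0 RPKM. *Tsf1* was above *Alas* in every female library (means 127 and 87.1 RPKM), whereas in males the order varied (means 86.1 and 104 RPKM). *Ho* averaged 42.5 ± 18.1 RPKM. The lower-abundance genes were *FeCH* at 25.6 ± 4.06, *Coprox* at 24.4 ± 3.11, *Ppox* at 19.8 ± 10.2, *Mvl* at 17.0 ± 3.78 and *Pbgs* at 12.3 ± 2.03 RPKM (SD, n = 16). *FeCH* was above *Coprox* in every female library (means 26.7 and 22.7 RPKM), whereas in males the order varied (means 24.5 and 26.0 RPKM). *Mvl* was above *Pbgs* in every female library. In males it was below *Pbgs* in *208-ΔG* replicate 2 (12.4 against 13.9 RPKM) and DGRP_208 replicate 2 (13.3 against 14.6 RPKM), and above it in the others. The SD of *Ppox*, which spans both sexes, covered its neighbours on both sides. *Ppox* had the lowest mean RPKM of the 10 in females, at 11.8 ± 1.41 (SD, n = 8), and stood sixth in males, at 27.8 ± 8.56 (SD, n = 8).

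*Ppox* (FBgn0020018) encodes protoporphyrinogen oxidase, the enzyme before ferrochelatase. It lies on chromosome arm 3R at 24660197 to 24661851 of the dm6 genome, on the reverse strand, and its 3′ end shares 69 bases with *CG31126* on the other strand. The libraries of DGRP_208 females held 19.4 and 17.5 CPM of *Ppox*, those of *208-ΔA* females 17.6 and 18.4 CPM, those of *208-ΔF* females 17.8 and 22.0 CPM, and those of *208-ΔG* females 24.1 and 19.7 CPM. Males held 32.9 and 28.7 CPM in DGRP_208, 62.8 and 56.3 CPM in *208-ΔA*, 57.0 and 60.2 CPM in *208-ΔF*, and 35.4 and 35.4 CPM in *208-ΔG*. Every male library was above every female library, and among the males the 4 libraries of *208-ΔA* and *208-ΔF* stood well above the 4 of DGRP_208 and *208-ΔG*.

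**Figure D1:**
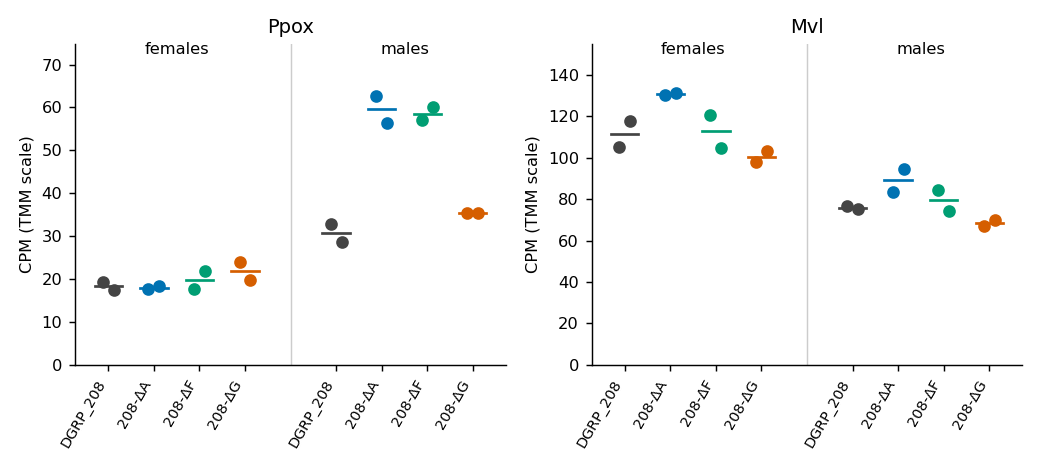
Levels of *Ppox* (left) and *Mvl* (right) in CPM on the TMM scale, by line and sex. Points are libraries (2 per group) and bars are group means; *Ppox* is higher and *Mvl* lower in every male library than in any female library, and *Ppox* reaches 56.3 to 62.8 CPM in *208-ΔA* and *208-ΔF* males against 28.7 to 35.4 CPM in the other males.

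Averaged over the lines, *Ppox* was 2.26-fold higher in males (log2 fold change 1.18, SE 0.0937, adjusted p = 2.40e-06 with edgeR). In DGRP_208 alone it was 1.67-fold higher in males (log2 fold change 0.74, SE 0.186, adjusted p = 0.0168), where the adjusted p became 0.0571 with scaling by library size only and 0.0761 without DGRP_208 female replicate 2. For the deletion lines the log2 fold change of males over females was 1.33 (SE 0.109, adjusted p = 5.31e-06). Of all genes tested, 20.8% were called higher and 19.0% lower in males, and 20.8% were called in DGRP_208 alone, so a call for Sex was common. *CG31126*, the gene that overlaps *Ppox*, was not called (log2 fold change -0.17, SE 0.146, adjusted p = 0.414). Testis markers, which differ between the sexes by definition, summed to 486 to 1397 CPM in males and 18.1 to 59.95 CPM in females; their part in the difference was not tested. Of all genes tested, 18.2% had the 8 male libraries all above or all below the 8 female ones, and among the 10 these were *Ppox*, above, and *Mvl*, below.

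In males, the 6 deletion libraries were all above both DGRP_208 libraries for *Ppox*, 1 of the 10 genes, against 4.30% of all genes with the 6 outside on one side. The fold change of the deletion lines over DGRP_208 was 1.62 in males (log2 0.69, SE 0.157, 95% interval 0.33 to 1.05, adjusted p = 0.429), so *Ppox* was not called by edgeR. DESeq2 called it, with a log2 fold change of 0.66 (adjusted p = 0.0144), as did a linear model fitted gene by gene to GeTMM values, which are counts scaled by gene length and TMM factors, after the study's methods (0.66, adjusted p = 0.00715). The adjusted p ran from 0.00715 to 0.991 over the 14 other alternatives and from 0.472 to 1 when each library was left out, with log2 fold changes from 0.65 to 0.83 and from 0.59 to 0.71. Without both libraries that hold transcripts of the other sex it was 0.66 (adjusted p = 0.991), and without *208-ΔG* 0.83 (adjusted p = 0.562). The study lists *Ppox* as differing between lines in these same libraries. None of these values is therefore independent evidence.

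In males the log2 fold change of *Ppox* over DGRP_208 was 0.95 (SE 0.186, adjusted p = 0.263) in *208-ΔA* and 0.93 (SE 0.186, adjusted p = 0.305) in *208-ΔF*, and 0.20 (SE 0.185, 95% interval -0.22 to 0.63, adjusted p = 0.639) in *208-ΔG*. These comparisons share the DGRP_208 males. DESeq2 called *208-ΔA* (adjusted p = 0.00127) and *208-ΔF* (adjusted p = 0.00468), as did the linear model on GeTMM values (adjusted p = 0.00472 and 0.0157). The testis markers summed to 1213 and 538 CPM in the DGRP_208 males, 1386 and 973 CPM in *208-ΔA*, 1029 and 1397 CPM in *208-ΔF*, and 486 and 499.6 CPM in *208-ΔG*. The part of the testis in the difference of *Ppox* between these lines was not tested.

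In females, the deletion lines differed from DGRP_208 in *Ppox* by a log2 fold change of 0.11 (SE 0.152, 95% interval -0.25 to 0.46, adjusted p = 1). The difference between the male and female effects on the log2 scale was 0.59 (SE 0.214, adjusted p = 1) with edgeR. The linear model compares GeTMM values that are not log-transformed, and it gave an adjusted p of 0.0464. A gene with unequal levels in the sexes can pass that test under equal fold changes. For the Line by Sex term *Ppox* had an adjusted p of 1 with edgeR and 0.0847 with DESeq2. That linear model, again on unlogged values, gave 0.0404 for *Ppox*. It was 1 of the 10 with an unadjusted p under 0.05. No gene passed the Line by Sex test of edgeR (0% of 16212), although 736 had an unadjusted p under 0.05, and DESeq2 called 31 genes, limma-voom 0 and the linear model 8.

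*Alas* (FBgn0020764, 2R, 23964772 to 23966757) encodes the first and rate-limiting enzyme of the pathway. Its level was 176 and 177 CPM in DGRP_208 females, 242 and 179 CPM in *208-ΔA*, 158 and 136 CPM in *208-ΔF*, and 92.2 and 124 CPM in *208-ΔG* females. Males held 255 and 149 CPM in DGRP_208, 287 and 243 CPM in *208-ΔA*, 186 and 189 CPM in *208-ΔF*, and 105 and 116 CPM in *208-ΔG*. All 4 libraries of *208-ΔG* were below all 4 of *208-ΔA*. The DGRP_208 males lay far apart from each other. The log2 fold change of males over females was 0.23 (SE 0.130, adjusted p = 0.207), and *Alas* was called for Sex with scaling by library size only (0.23, adjusted p = 0.0284). It was 0.34 without DGRP_208 male replicate 2 and 0.13 without DGRP_208 male replicate 1.

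The other enzymes of synthesis spanned narrower ranges. *Pbgs* (FBgn0036271, 3L, 12269452 to 12271345), which encodes porphobilinogen synthase and shares 352 bases with *CG32100* on the other strand, ran from 18.9 to 30.6 CPM in females (median 24.6) and from 16.2 to 27.6 CPM in males (median 21.9). *Coprox* (FBgn0021944, 2L, 6964421 to 6965887), which encodes coproporphyrinogen oxidase, ran from 29.2 to 37.7 CPM in females (median 33.4) and from 32.3 to 42.6 CPM in males (median 39.5). Its log2 fold change of males over females was 0.20 (SE 0.0875, adjusted p = 0.102). It was called at 0.19 (adjusted p = 0.00763) by the linear model on GeTMM values and at 0.38 (adjusted p = 0.0238) without the libraries of *208-ΔG*. When each library was left out it ran from 0.17, without *208-ΔA* female replicate 1, to 0.25, without DGRP_208 male replicate 2. *FeCH* (FBgn0266268, 3R, 31810460 to 31812296), which encodes ferrochelatase, the last enzyme, ran from 33.6 to 56.9 CPM in females (median 40.1) and from 32.9 to 45.5 CPM in males (median 36.1). The sexes overlapped for each of the 3, and *208-ΔG* female replicate 1 gave the highest value of *FeCH* and of *Pbgs*. For the neighbours of *Ppox* in the pathway, the log2 fold change of the deletion lines in males was -0.07 (SE 0.142, 95% interval -0.40 to 0.26) for *Coprox* and -0.13 (SE 0.186, 95% interval -0.55 to 0.30) for *FeCH*, neither called.

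*Ho* (FBgn0037933, 3R, 11679743 to 11680976) encodes haem oxygenase, which opens the haem ring and releases its iron. Females held 33.8 and 50.3 CPM in DGRP_208, 36.6 and 49.6 CPM in *208-ΔA*, 65.3 and 38.7 CPM in *208-ΔF*, and 20.5 and 25.5 CPM in *208-ΔG*. Males held 65.7 and 26.3 CPM in DGRP_208, 59.98 and 61.0 CPM in *208-ΔA*, 67.9 and 96.0 CPM in *208-ΔF*, and 37.1 and 29.9 CPM in *208-ΔG*. The *208-ΔA* and *208-ΔG* males all lay between the replicates of DGRP_208 males, and both *208-ΔF* males lay above them. Males over females gave a log2 fold change of 0.45 (SE 0.204, adjusted p = 0.106), which was called with scaling by library size only (0.45, adjusted p = 0.0183). It was 0.62 without DGRP_208 male replicate 2 and 0.26 without DGRP_208 male replicate 1.

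The ferritin genes lie head to head on 3R, *Fer1HCH* (FBgn0015222) at 30385573 to 30388178 on the reverse strand and *Fer2LCH* (FBgn0015221) at 30387804 to 30390584 on the forward strand, and 375 bases at their 5′ ends overlap. The strand setting of the counting is not given in the sources used here, so reads in this overlap cannot be told apart. *Fer1HCH* stood at 581 and 759.7 CPM in DGRP_208 females, 903 and 859 CPM in *208-ΔA*, 810.4 and 599 CPM in *208-ΔF*, and 293 and 478 CPM in *208-ΔG* females. Males held 769 and 409 CPM in DGRP_208, 821 and 895 CPM in *208-ΔA*, 647 and 750.2 CPM in *208-ΔF*, and 354 and 333 CPM in *208-ΔG*. *208-ΔG* was low in both sexes, and DGRP_208 male replicate 2 was near it.

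*Fer2LCH* moved with it. Within females Pearson's r of the log2 levels was 0.987 (exact permutation p = 2.48e-05, adjusted p = 5.46e-04 over 22 relations) and Spearman's rho 1.0 (p = 4.96e-05, adjusted p = 0.00109). Within males r was 0.995 (p = 7.44e-05, adjusted p = 8.18e-04) and rho 0.976 (p = 3.97e-04, adjusted p = 0.00436), over 8 libraries each. Without the 2 libraries of *208-ΔG* of that sex r was 0.980 and 0.990. The permutation treats the 8 libraries as exchangeable, although they are 2 from each of 4 lines, so its p-values do not measure a relation across independent lines. Over all 16 libraries *Cyt-c1*, *sesB* and *Mdh2* lay closer to *Fer1HCH* than *Fer2LCH* did, which stood at rank 5 of 14467 genes. Per kilobase, the ratio of light to heavy chain was 1.97 ± 0.126 (SD, n = 16), with 1.67 in DGRP_208 female replicate 1 as the lowest and 2.17 in *208-ΔA* female replicate 1 as the highest. Neither gene was called for Sex, with log2 fold changes of -0.10 (SE 0.165) for *Fer1HCH* and -0.08 (SE 0.188) for *Fer2LCH*.

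*Tsf1* (FBgn0022355, X, 18387084 to 18390344) encodes the secreted transferrin of the haemolymph. Females held 310.2 and 354 CPM in DGRP_208, 545 and 457 CPM in *208-ΔA*, 416 and 348 CPM in *208-ΔF*, and 177 and 292 CPM in *208-ΔG*. Males held 266 and 262 CPM in DGRP_208, 255 and 339.9 CPM in *208-ΔA*, 325 and 258 CPM in *208-ΔF*, and 121 and 139 CPM in *208-ΔG*. Within every line both males were below both females, but across the lines the sexes overlapped. Averaged over the lines *Tsf1* was 1.496-fold lower in males (log2 fold change -0.58, SE 0.130, adjusted p = 0.00379), whereas in DGRP_208 alone the log2 fold change was -0.33 (SE 0.26, adjusted p = 0.464). Hemocyte markers (5 genes) summed to 366 to 581 CPM in females and 281 to 518 CPM in males, and fat body markers to 1604 to 6757 CPM and 1993 to 8235 CPM; their part in the difference was not tested.

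*Mvl* (FBgn0011672, 3R, 21051383 to 21060800) encodes the NRAMP-type transporter that carries iron and manganese across membranes. Females held 105 and 118 CPM in DGRP_208, 130.2 and 131 CPM in *208-ΔA*, 121 and 105 CPM in *208-ΔF*, and 97.8 and 103 CPM in *208-ΔG*. Males held 76.8 and 75.1 CPM in DGRP_208, 83.5 and 94.8 CPM in *208-ΔA*, 84.6 and 74.1 CPM in *208-ΔF*, and 67.0 and 70.1 CPM in *208-ΔG*. The highest male library, at 94.8 CPM, was below the lowest female one. *Mvl* was 1.46-fold lower in males (log2 fold change -0.54, SE 0.0747, adjusted p = 1.36e-04) and passed the test when each library was left out (adjusted p from 3.49e-04 to 0.00243). In DGRP_208 alone the log2 fold change was -0.56 (SE 0.149, adjusted p = 0.0228), a call that was lost under 5 of 13 other alternatives and in 12 of the 16 fits that left out 1 library, and kept in those without *208-ΔF* male replicate 1, *208-ΔG* female replicate 1 or 2 or DGRP_208 female replicate 1. The largest loss came without DGRP_208 female replicate 2 (-0.34, adjusted p = 0.473).

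**Figure D2:**
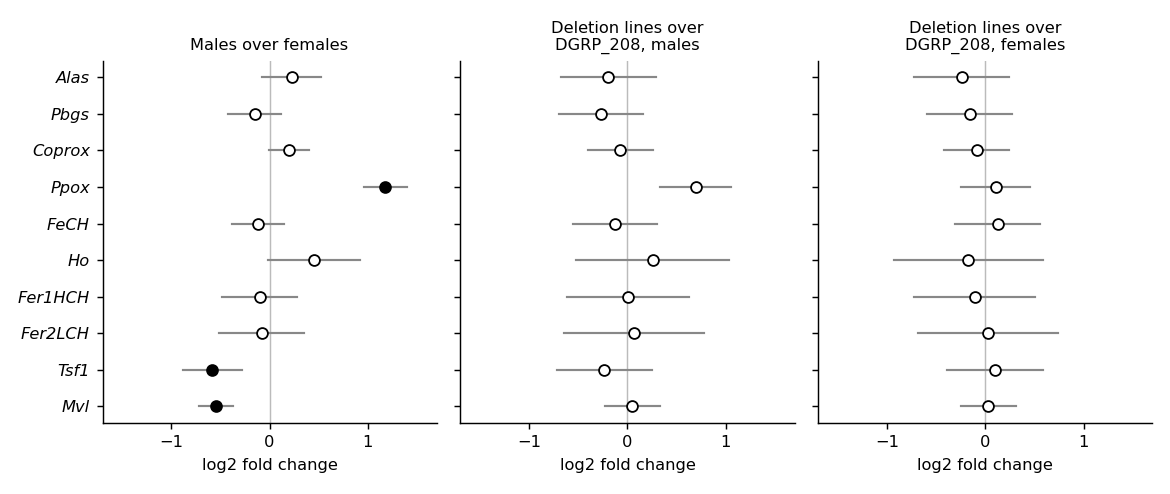
Log2 fold changes of the 10 genes from edgeR, for males over females (left) and for the deletion lines over DGRP_208 in males (middle) and females (right). Lines are 95% intervals computed from the SE with 8 degrees of freedom. Filled points passed an adjusted p under 0.05 and open points did not; *Ppox* (1.18), *Tsf1* (-0.58) and *Mvl* (-0.54) are filled for Sex, and none is filled for the deletions, where *Ppox* in males (0.69) lies farthest from 0.

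For Sex, where 20.8% of all genes were called higher and 19.0% lower, 3 of the 10 were called, *Ppox* higher and *Tsf1* and *Mvl* lower in males, with or without the libraries that hold transcripts of the other sex (then 1.21, -0.70 and -0.62), with a median log2 fold change of -0.09 over the 10 and of -0.03 over all genes. For the deletion lines over DGRP_208 edgeR called 0 of the 10 in each sex and in the average of both, against 0.130% of all genes in females, 0.0617% in males and 0.117% in the average. At an unadjusted p under 0.05 there was 1 of the 10, *Ppox*, in males (2.95% of all genes) and in the average (4.39%), and 0 in females (3.78%). DESeq2 and the linear model on GeTMM values each called 1 in males, where they called 0.376% and 0.0555% of all genes. The linear model also called 1 with the sexes averaged (0.154% of all genes). Each time the gene was *Ppox*, which the study lists from these same libraries, so these calls are no independent evidence. Limma-voom called 0 of the 10 in all 3, and 0.160% of all genes in females, 0.0432% in males and 0.130% in the average. The medians over the 10 were -0.03 in females and -0.03 in males, beside -0.01 and -0.05 over all genes. In females none of the 10 had the 6 deletion libraries on one side of both DGRP_208 libraries, against 4.53% of all genes.

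For the Line term, which tests any difference between the 4 lines, edgeR called 0 of the 10 at an adjusted p under 0.05 (0.191% of all genes), although 7 had an unadjusted p under 0.05, as did 50.4% of all genes. At an adjusted p under 0.1 it called 7 (*Alas*, *Ppox*, *Ho*, *Fer1HCH*, *Fer2LCH*, *Tsf1* and *Mvl*), where 50.7% of all genes were called. DESeq2 called the same 7 at 0.05, and 53.4% of all genes. Limma-voom called 6 of them (all but *Mvl*), and 30.2% of all genes. The linear model on GeTMM values called 1, *Ppox* (adjusted p = 0.0237), and 0.105% of all genes. This model follows the study's methods on the same libraries, in which the study lists *Ppox* as differing between lines. Its call of *Ppox* is therefore no independent evidence. Without DGRP_208 male replicate 2 edgeR called 7, without *208-ΔF* female replicate 2 or DGRP_208 male replicate 1 it called 5, and without *208-ΔG* female replicate 2 it called 4, in fits that called 2619 to 7748 genes in all.

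**Figure D3:**
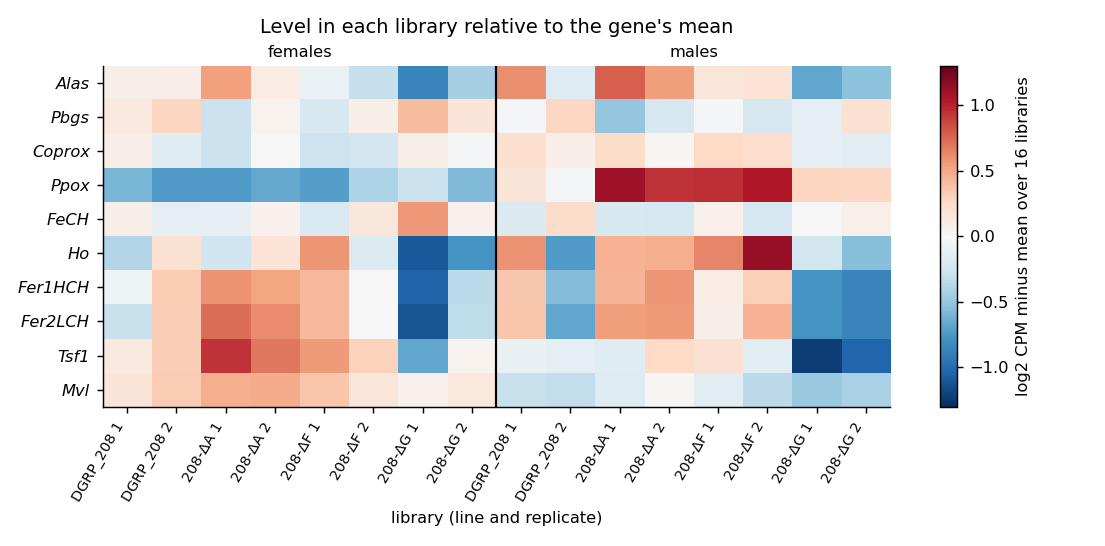
Level of each of the 10 genes in each library as log2 CPM minus the gene's mean over the 16 libraries (colour scale from -1.3, blue, to 1.3, red), females left and males right of the line. *Ppox* is blue in females and dark red in *208-ΔA* and *208-ΔF* males, whereas *Alas*, *Ho*, the ferritin genes and *Tsf1* are blue in most libraries of *208-ΔG*.

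EdgeR called 0 of the 10 for each line over DGRP_208, sexes averaged, against 0.167% of all genes in *208-ΔA*, 0.0740% in *208-ΔF* and 0.271% in *208-ΔG*. At an unadjusted p under 0.05 there were 3 of the 10 and 15.3% of all genes in *208-ΔA*, 1 and 5.05% in *208-ΔF*, and 5 and 28.2% in *208-ΔG*. DESeq2 called *Alas*, *Fer1HCH* and *Tsf1* in *208-ΔG*, 3 of the 10, and 10.4% of all genes. In *208-ΔG* the log2 fold change over DGRP_208 was -0.79 (SE 0.185, adjusted p = 0.0773) for *Alas*, -0.79 (SE 0.234, adjusted p = 0.0900) for *Fer1HCH* and -0.76 (SE 0.185, adjusted p = 0.0773) for *Tsf1*. Without DGRP_208 male replicate 2, whose chemoreceptor level was 3.45 RPKM, these became -0.99, -1.01 and -0.79, with *Ho* at -0.95 and *Fer2LCH* at -0.97. Without DGRP_208 male replicate 1, *Alas* was at -0.56, *Fer1HCH* at -0.52, *Ho* at -0.25 and *Fer2LCH* at -0.42. Without *208-ΔG* female replicate 2, *Alas*, *Fer1HCH* and *Tsf1* were at -0.94, -1.02 and -0.99. Over the 12 other alternatives the highest values were -0.31 for *Alas*, -0.29 for *Fer1HCH* and -0.33 for *Tsf1*. They were -0.11 for *Fer2LCH* and 0.006 for *Ho*.

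In *208-ΔG* against *208-ΔA*, averaged over the sexes, 6 of the 10 were lower. *Fer2LCH* was lower by 2.55-fold (log2 fold change -1.35, SE 0.271, adjusted p = 0.0100) and *Fer1HCH* by 2.39-fold (-1.26, SE 0.236, adjusted p = 0.0100). *Tsf1* was lower by 2.21-fold (-1.14, SE 0.186, adjusted p = 0.0100) and *Alas* by 2.16-fold (-1.11, SE 0.186, adjusted p = 0.0100). *Ho* was lower by 1.84-fold (-0.88, SE 0.290, adjusted p = 0.0245) and *Mvl* by 1.301-fold (-0.38, SE 0.105, adjusted p = 0.0135), where *Mvl* turned to 0.35 with scaling by library size only and *Ho* to 0.06 with the chemoreceptor level as a covariate. *Pbgs* (0.40, SE 0.165, adjusted p = 0.0588), *FeCH* (0.30, SE 0.162), *Coprox* (-0.05, SE 0.124) and *Ppox* (-0.24, SE 0.131) were not called. Such calls were frequent in this comparison, with 30.1% of all genes lower and 27.8% higher in *208-ΔG*. The median log2 fold change was -0.63 over the 10 and 0.01 over all genes. *Alas*, *Fer1HCH* and *Fer2LCH* were lower in all 4 libraries of *208-ΔG* than in any of *208-ΔA*, a separation that 47.2% of all genes showed in either direction.

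The chemoreceptor level of the libraries moved with this comparison. With that level as a covariate edgeR called 0 of the 10 and 0 of 16212 genes, 711 of them at an unadjusted p under 0.05, and the log2 fold changes shrank to -0.42 for *Fer2LCH*, -0.50 for *Fer1HCH*, -0.52 for *Alas*, -0.95 for *Tsf1* and -0.32 for *Mvl*. No library of *208-ΔA* reached the lowest level of *208-ΔG*, so line and level cannot be told apart. Scaling by library size only moved the median of all genes to 0.73 and the share of calls that were higher from 48.0% to 85.0%, so *Mvl* (0.35) and *Coprox* (0.68, adjusted p = 0.0140) lay above 0 and below that median. With that scaling *Pbgs* (1.13, adjusted p = 0.0107) and *FeCH* (1.05, adjusted p = 0.0127) were called higher, and the calls of *Tsf1* (-0.43, adjusted p = 0.0570), *Ho* (-0.16, adjusted p = 0.460) and *Mvl* were lost. *Pbgs* was also called higher with upper-quartile factors (0.59, adjusted p = 0.0197), by DESeq2 (0.35, adjusted p = 0.0491), by the linear model on GeTMM values (0.45, adjusted p = 0.0410) and without DGRP_208 male replicate 1 (0.45, adjusted p = 0.0432). Upper-quartile factors moved the median of all genes to 0.20, called *FeCH* higher (0.50, adjusted p = 0.0399) and ended the call of *Mvl* (-0.19, adjusted p = 0.134). The linear model called *Ppox* (-0.31, adjusted p = 0.0188) and not *Ho* (-0.78, adjusted p = 0.113). The *Ho* call was lost without any 1 of the 4 libraries of *208-ΔA*, *208-ΔG* female replicate 1 or *208-ΔG* male replicate 2 (log2 fold changes from -0.91 to -0.72, adjusted p from 0.0506 to 0.0846), and without both libraries that hold transcripts of the other sex (-0.80, adjusted p = 0.0601). The *Mvl* call was lost without any 1 of the 4 libraries of *208-ΔA*, *208-ΔF* male replicate 2 or DGRP_208 female replicate 2 (from -0.39 to -0.26, adjusted p from 0.0505 to 0.166), and without both of those libraries (-0.26, adjusted p = 0.143), which left 4 of the 10 called. Fat body markers summed to 6012 to 8235 CPM in *208-ΔA* and 1604 to 3240 CPM in *208-ΔG*, and midgut markers to 3762 to 5170 CPM and 1203 to 2306 CPM; their part in the difference was not tested.

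**Figure D4:**
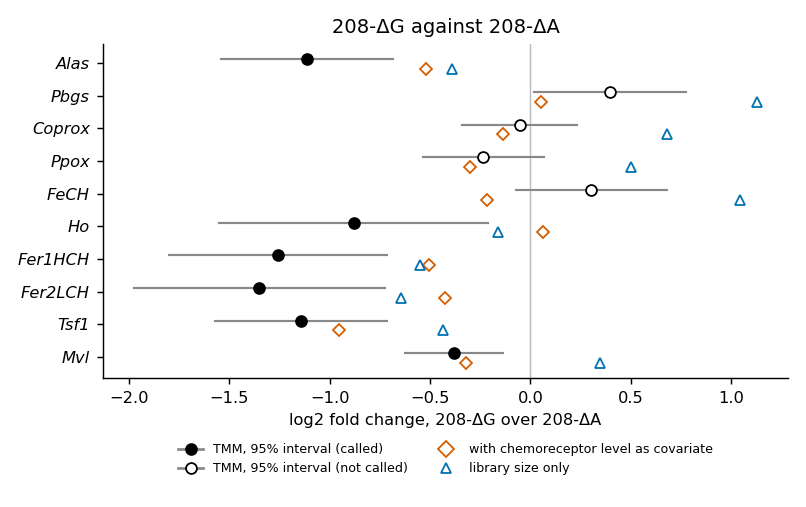
Log2 fold changes of *208-ΔG* over *208-ΔA* for the 10 genes. Circles with 95% intervals are the TMM-scaled fit of edgeR (filled, adjusted p under 0.05), diamonds the fit that adds the chemoreceptor level as a covariate, in which *Ho* turns to 0.06, and triangles the fit scaled by library size only, in which *Mvl* turns to 0.35 and the median of all genes is 0.73.

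For *208-ΔG* against *208-ΔF*, edgeR called 0 of the 10 and 0% of all genes at an adjusted p under 0.05, with 6 of the 10 and 6284 of 16212 genes at an unadjusted p under 0.05. *Ho* had a log2 fold change of -1.23 (SE 0.292, adjusted p = 0.0622) there, *Tsf1* -0.93, *Fer1HCH* -0.95, *Fer2LCH* -0.99 and *Alas* -0.60, and DESeq2 called these 5, with 27.3% of all genes. EdgeR called them in 3 of the 16 fits that left out 1 library and not in the other 13. Those fits ran from -1.36 to -0.88 for *Ho*, -1.17 to -0.73 for *Tsf1* and -1.18 to -0.69 for *Fer1HCH*. They ran from -1.25 to -0.74 for *Fer2LCH* and -0.76 to -0.41 for *Alas*, each highest without *208-ΔF* female replicate 1. Over the 12 other alternatives the highest value was -0.06 for *Alas* and -0.40 for *Fer1HCH* and *Tsf1*. The chemoreceptor level was at most 2.30 RPKM in *208-ΔF* and at least 2.87 RPKM in *208-ΔG*, so line and level cannot be told apart. For *208-ΔF* against *208-ΔA*, 0 of the 10 and 0.00617% of all genes were called by edgeR, with 1 of the 10, *Alas* (-0.51, SE 0.184, adjusted p = 0.479), at an unadjusted p under 0.05.

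Within each sex the 10 were set against the chemoreceptor level over the 8 libraries. By the exact permutation test of Pearson's r, 9 of the 10 and 71.6% of all genes had an unadjusted p under 0.05 in females, and 6 of the 10 and 72.4% of all genes in males. A relation with this level was thus common to most genes. The chemoreceptor level is scaled by library size alone, whereas the CPM of the genes are also divided by the TMM factor. That factor was 0.806 in *208-ΔA* female replicate 1, at a level of 0.350 RPKM, and 1.47 in *208-ΔG* female replicate 1, at 5.92 RPKM. The part of these scalings in the relations was not tested. In females, Pearson's r of the log2 values was -0.910 for *Alas* (exact permutation p = 0.00223, adjusted p = 0.00491 over 22 relations; Spearman's rho -0.881, p = 0.00724, adjusted p = 0.0199), -0.930 for *Fer1HCH* (p = 5.21e-04, adjusted p = 0.00287; rho -0.881, p = 0.00724, adjusted p = 0.0199), and 0.903 for *Ppox* (p = 0.00109, adjusted p = 0.00382; rho 0.952, p = 0.00114, adjusted p = 0.00628). With the 2 libraries farthest from the median left out these were -0.712, -0.908 and 0.844. In males r was -0.943 for *Alas* (p = 1.49e-04, adjusted p = 0.00109; rho -0.952, p = 0.00114, adjusted p = 0.00628) and -0.951 for *Fer1HCH* (p = 0.00122, adjusted p = 0.00382; rho -0.857, p = 0.0107, adjusted p = 0.0262), and -0.901 and -0.906 without the 2 libraries of *208-ΔG*. For *Ppox* in males it was -0.621 (p = 0.0916, adjusted p = 0.0960; rho -0.500, p = 0.216, adjusted p = 0.227), and -0.501 without the 2 libraries of *208-ΔG*. *FeCH* rose with the level, with r = 0.857 in females (p = 0.00429, adjusted p = 0.00787; rho 0.833, p = 0.0154, adjusted p = 0.0282) and 0.864 in males (p = 0.0184, adjusted p = 0.0311; rho 0.595, p = 0.132, adjusted p = 0.162); without the 2 farthest libraries it was 0.808 and 0.963. *Tsf1* fell with the level in females (r = -0.900, p = 0.00221, adjusted p = 0.00491; rho -0.881, p = 0.00724, adjusted p = 0.0199). In males r was -0.650 for *Tsf1* (p = 0.0864, adjusted p = 0.0951; rho -0.357, p = 0.389, adjusted p = 0.389), and 0.160 without the 2 libraries of *208-ΔG*. Libraries of a line lie together on this axis, which the permutation does not take into account. With 2 libraries per sex in a line the relations could not be computed within lines.

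**Figure D5:**
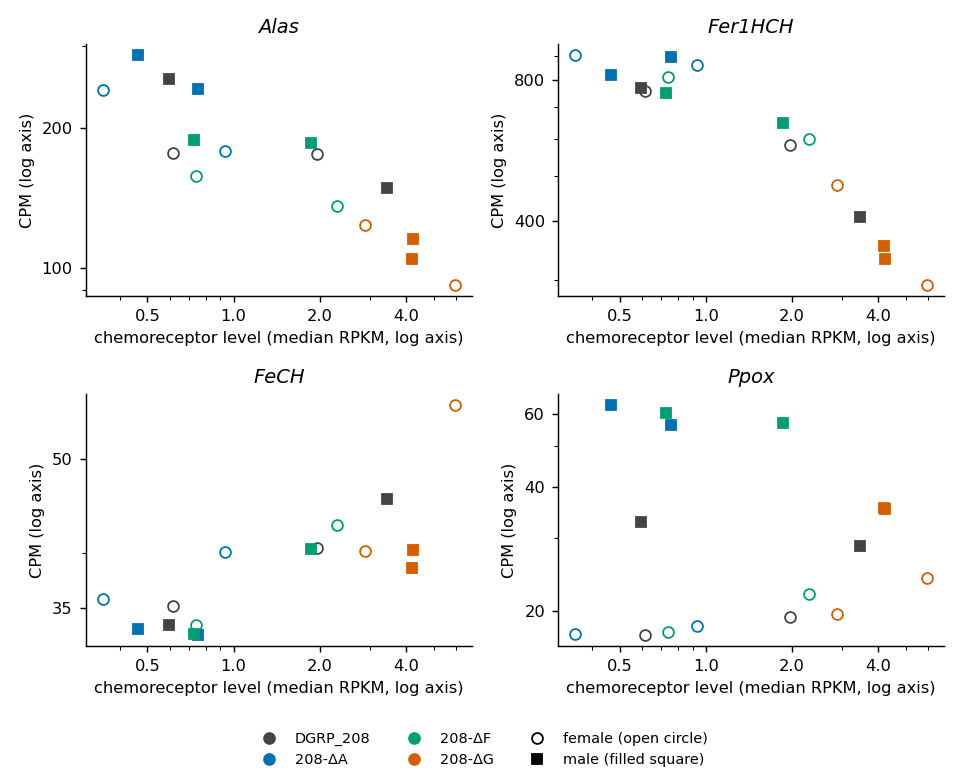
Levels of *Alas*, *Fer1HCH*, *FeCH* and *Ppox* (CPM, log axes) against the chemoreceptor level of each library (median RPKM of 185 genes, log axis), by line (colour) and sex (open circles females, filled squares males). *Alas* and *Fer1HCH* fall and *FeCH* rises along the axis in both sexes, whereas *Ppox* in males lies at 56.3 to 62.8 CPM in *208-ΔA* and *208-ΔF* and at 28.7 to 35.4 CPM in DGRP_208 and *208-ΔG*.

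With the chemoreceptor level as a covariate, edgeR gave a log2 fold change of *Ppox* for the deletion lines in males of 0.69, with an adjusted p of 0.0993. That fit takes the same slope for both sexes, whereas Pearson's r of *Ppox* with the level was 0.903 in females and -0.621 in males. It therefore cannot show whether the difference in males is independent of the level. For Sex, 6 of the 10 and 55.1% of all genes were called by edgeR with this covariate. The 6 were *Alas* (0.24), *Coprox* (0.20) and *Ho* (0.45), higher in males, beside *Ppox*, *Tsf1* and *Mvl*.

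Of 36 further genes of haem synthesis and handling, iron handling, iron-sulfur cluster assembly and haem proteins, 34 were found in the table. For Sex, 12 of the 34 were called, 8 higher and 4 lower in males, beside 20.8% of all genes higher and 19.0% lower. By list these were 3 of 8 genes of haem synthesis and handling, 4 of 10 of iron handling, 1 of 7 of iron-sulfur assembly and 4 of 9 haem proteins. Among the other enzymes of haem synthesis, *Uros2*, which encodes a uroporphyrinogen synthase, was 6.12-fold higher in males (log2 fold change 2.61, SE 0.405, adjusted p = 3.17e-04), at 24.6 CPM or more in every male library and 21.0 CPM or less in every female one. In contrast *Urod*, which encodes uroporphyrinogen decarboxylase, was lower (-0.29, SE 0.0794, adjusted p = 0.0115). Of the haem proteins, *Cyt-c-d*, a cytochrome c, had a log2 fold change of 5.38 (SE 0.359, adjusted p = 8.35e-07), *Cyt-c1L*, a cytochrome c1 gene, 2.67 (SE 0.413), *glob2*, a globin, 2.63 (SE 0.259) and *glob3* 1.81 (SE 0.491). *Zip99C*, an iron transporter gene (0.94, SE 0.189), *mfrn*, the mitochondrial iron importer mitoferrin (0.43, SE 0.137), and *MagR*, an iron-sulfur assembly gene (0.75, SE 0.133), were also higher in males, and *Tsf2* (-0.42, SE 0.154, adjusted p = 0.0481) and *Irp-1A*, a cytosolic aconitase and iron regulatory protein gene (-0.27, SE 0.0902, adjusted p = 0.0311), lower. The median over the 34 was -0.01, beside -0.03 over all genes, and the part of the testis markers in these differences was not tested.

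For the deletion lines, edgeR called 0 of the 34 in females and 0 in males, with 0 of them at an unadjusted p under 0.05 in either sex. In *208-ΔG* against *208-ΔA* it called 24, of which 19 were lower and 5 higher, beside 30.1% of all genes lower and 27.8% higher, with a median log2 fold change of -0.40 beside 0.01 over all genes. The list medians were -0.36 for haem synthesis and handling, -0.04 for iron handling, -0.68 for iron-sulfur assembly and -1.25 for haem proteins. The lower ones included *Cat*, catalase (-1.38, SE 0.245), *Cyt-c1*, a subunit of respiratory complex III (-1.37, SE 0.283), *Cyt-c-p*, the main cytochrome c (-1.35, SE 0.310), *Cchl*, the haem lyase of cytochrome c (-1.31, SE 0.302), and *IscU*, the scaffold of iron-sulfur cluster assembly (-1.27, SE 0.234). The higher ones were *MCO3*, a multicopper oxidase gene (2.24, SE 0.725), *Fer3HCH*, the mitochondrial ferritin (1.78, SE 0.603), *Tsf3* (1.12, SE 0.339), *glob2* (0.99, SE 0.352) and *fh*, frataxin (0.89, SE 0.302). The chemoreceptor level, as above, moved with this comparison, and with it as a covariate no gene was called.

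Over the 16 libraries and 14467 genes, the genes whose log2 CPM was most like that of *Ppox* were *CG4935* (r = 0.989), *sa* (0.986) and *wfs1* (0.984). Of the other 9 described here the nearest to *Ppox* was *Coprox*, at rank 2683 (r = 0.663). For *Alas* the closest were *CG7920* (r = 0.985), *Arr2* (0.976) and *Arr1* (0.973), and for *Fer1HCH* they were *Cyt-c1* (0.994), *sesB* (0.991) and *Mdh2* (0.991), with *Fer2LCH* at rank 5 (0.990). These values describe libraries that share line, sex and chemoreceptor level, and no test was made of them.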

How the data were processed

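The deposited table holds raw read counts per gene for the 16 libraries, made by the authors from rRNA-depleted total RNA: reads were filtered with AfterQC, aligned with GSNAP to the *D. melanogaster* reference (dm6 per the labels) and counted with featureCounts of Subread when aligned to a single place. The versions of GSNAP and Subread and the strand setting are not given in the sources used here. Libraries were assigned by the sample titles in the column names. Of 17490 genes, 663 had no count, and 16212 passed a minimum of 2 on the median count and were tested. TMM factors and the quasi-likelihood test of edgeR 4.0.16 (R 4.3.3) were applied with 1 mean for each of the 8 groups (8 residual degrees of freedom), with p-values adjusted by Benjamini-Hochberg over all genes tested. DESeq2 1.42.0, limma-voom (limma 3.58.1), a linear model on GeTMM values, other scalings and filters, a replicate block, the chemoreceptor level as a covariate and left-out libraries were alternatives. Correlations used exact permutation tests (scipy 1.17.1). The scripts were tested on simulated data. Gene positions were taken from Ensembl and RefSeq annotations of the same assembly, which differed by 0 bases for the 10 genes.

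All 10 genes are described, and genes of the 4 further lists are given by counts, with examples among those called; 2 of the 36 listed symbols, *Cox15* and *FLVCR*, were not matched, nor was the ovary marker *nos*. The genes nearest in pattern are the 3 with the highest Pearson's r of log2 CPM (prior count 2) among genes with a mean of at least 1 CPM. The members and lists were chosen with earlier results of these data known. The examples leave out a gene that is not reported here but enters the counts. Sequences were not analysed here.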

Additional observations from a re-analysis of the deposited data

How the results depend on the processing

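Of 3720 values of single genes under 30 alternatives, 3602 kept their direction where called and their side of the threshold, 73 were newly called, 42 lost their call and 3 turned their direction, all in *208-ΔG* over *208-ΔA*: *Coprox* (0.677) and *Mvl* (0.346) with scaling by library size only, and *Ho* (0.0608) with the chemoreceptor level as a covariate. Among values called in neither fit, 299 changed sign. The count of the 10 genes called for Sex (3) became 5 with library size only (40.4% of all genes), 6 with the covariate (55.1%), and 3 to 6 when each library was left out. The count for Line (0) became 7 at an adjusted p under 0.1, 4 with library size only (29.9% of all genes), 7 with DESeq2, 6 with limma-voom, 1 with the linear model on GeTMM values, and 0 to 7 when each library was left out. The linear model gave 1 in place of 0 for Line by Sex and for the deletion lines with the sexes averaged, and both it and DESeq2 gave 1 in place of 0 in males, where the log2 fold change of *Ppox* was 0.657 (DESeq2) and 0.658 (linear model). The count for *208-ΔG* over *208-ΔA* (6) became 0 with the covariate and 4 to 7 when each library was left out. Where a group keeps 1 library, its spread was taken from the remaining groups. The causes were not tested. With 2 libraries per group and 8 residual degrees of freedom, smaller differences than those called may go undetected.

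The labels give the replicates a number and do not say whether those of a number were handled together. The correlation between groups of the difference of replicates 1 and 2 ran from -0.77 to 0.60 over 28 pairs of groups. Its median was -0.038, with 8 pairs over 0.1 and 12 under -0.1. These values cannot decide whether a batch goes with the number, because libraries also differ widely within groups. With the replicate number as a block, the log2 fold change of *Ppox* in deletion males was 0.694 (adjusted p = 0.669).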
